A study of Homo sapiens and Mus musculus with 12 samples.

Results

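LSD1 peaks that lie close together in K562 cells were collected from the LSD1 peak list of the sg-NT line. The 6548 peaks of that list were sorted by position, and neighbours on a chromosome were joined into a chain when the gap from the end of one peak to the start of the next was at most 12.5 kb. Chains of at least 4 peaks were kept, which gave 477 clustered peaks (7.28% of the list) in 100 chains and left 6071 other peaks. The clustered peaks were thus chosen by the measured LSD1 peak positions, so their spacing, number and height are given as a description with no test.

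K562 is a human line from chronic myeloid leukemia, and THP1 is a human line from acute monocytic leukemia. The 3 K562 ChIP-seq libraries used here came from cells that express Cas9. These cells carry either a non-targeting guide (sg-NT, with LSD1 and GFI1 ChIP-seq) or a guide against the LSD1 gene (sg-LSD1, with GFI1 ChIP-seq). The THP1 libraries were ChIP-seq of GFI1 and SPI1, with no guide named in their labels. There was 1 library per antibody and condition. No value below is therefore replicated, and comparisons are between libraries or groups of peaks, not between conditions. The methods describe guide transduction of Cas9-selected cells and name no single clone. The peak lists held 498 GFI1 peaks for sg-NT, 160 GFI1 peaks for sg-LSD1, 3461 GFI1 peaks for THP1 and 1846 SPI1 peaks for THP1.

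LSD1, the product of KDM1A, removes methyl groups from lysine 4 of histone H3 (mono- and dimethylated forms) and works in complexes with CoREST and histone deacetylases. GFI1 and its close relative GFI1B are zinc-finger repressors of blood cells that recruit LSD1 through their SNAG domain. Dense groups of peaks of one factor are often found at enhancer clusters and around genes of the cell's own lineage. A peak's fold is its fragment pileup over the local background at the summit, and its −log10 p comes from the same comparison, both as the authors' peak caller gave them.

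The following 50-base windows are centred on LSD1 summits of clustered peaks that also carried a GFI1 peak in sg-NT cells. They are shown because both proteins were found there, and comprise the 7 tallest GFI1 sites of the chains, in order of height, and the sites at GFI1B and TANGO2. They were read from GRCh38 on the plus strand. Capitals mark the GFI1 core AATCAC, its first 4 letters AATC, the GATA core AGATAA, on either strand (GATT is AATC and TTATCT is AGATAA on the other strand). The search for AATC alone was added after the data had been seen.
near CRY2, chr11:45826663-45826712: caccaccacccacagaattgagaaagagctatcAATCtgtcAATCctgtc
CLEC16A intron, chr16:11100505-11100554: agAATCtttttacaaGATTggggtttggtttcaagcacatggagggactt
near MYLIP, chr6:15922643-15922692: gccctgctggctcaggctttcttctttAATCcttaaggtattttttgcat
FBXL18 intron, chr7:5458027-5458076: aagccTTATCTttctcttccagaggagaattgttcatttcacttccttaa
upstream of CASTOR2, chr7:74962623-74962672: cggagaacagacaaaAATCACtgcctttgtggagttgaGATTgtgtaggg
near LHX5, chr12:113649379-113649428: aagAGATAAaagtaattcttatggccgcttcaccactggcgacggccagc
near MYLIP, chr6:15906033-15906082: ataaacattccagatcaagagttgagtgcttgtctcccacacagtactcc
downstream of GFI1B, chr9:133004367-133004416: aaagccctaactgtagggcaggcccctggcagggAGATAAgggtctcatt
TANGO2 intron, chr22:20025573-20025622: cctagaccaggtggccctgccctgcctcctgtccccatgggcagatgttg

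Of the 100 chains, 59 held 4 peaks, 22 held 5, 10 held 6, 3 held 7, 4 held 8 and 2 held 9. Spans ran from 6267 to 49759 bp, with a median of 20075 bp, and peaks covered 10.4% of the summed span of 2074610 bp. That sum is 0.0672% of the genome. The 377 gaps inside chains had a median of 4213 bp, against a median of 79355 bp over all 6525 neighbouring pairs of the list. The widest gaps that still joined a chain were 12446 and 12438 bp, and the narrowest that did not were 12748 and 12915 bp. At the other edge of the rule stood 166 chains of 3 peaks, with a median −log10 p of 11.4 against 12.7 in chains of 4.

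Clustered peaks were of ordinary height. Their median −log10 p was 12.7 (range 5.20 to 97.9) and that of the other peaks 11.3, with median folds of 7.70 and 6.98. Solving fold and −log10 p for the fragment number gave medians of 14.0 fragments over clustered and 13.0 over other summits, so most peaks rested on few fragments. Within a chain the peaks were uneven. The tallest peak was a median of 3.16 times the shortest in −log10 p (range 1.24 to 15.5) and made up a median of 36.6% of the chain's summed −log10 p.

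Chromosome 19 held 35 of the 100 chains and 179 of the 477 clustered peaks. That is 37.5% of the clustered peaks, while the chromosome held 11.4% of all LSD1 peaks. Of its own LSD1 peaks 23.9% were clustered. It also had the highest density of LSD1 peaks, 12.8 per Mb against 2.12 over the genome, and of protein-coding genes, 25.2 against 6.49 per Mb. Chromosome 16 followed with 12 chains, and 14.5% of its LSD1 peaks were clustered. Chromosome 17 was gene-dense as well, with 14.2 genes per Mb, but held 1 chain and 1.30% of its peaks were clustered. No chain lay on chromosomes 2, 10, 13, 14, 15, 21 or X.

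Of the 9 chains with at least 7 peaks, 6 lay on chromosome 19. The next 10 chains held 6 peaks each, and the one at ARVCF and TANGO2 had the highest summed −log10 p of them. The span of CDC37 and PDE4A at chr19:10415679-10431806 held 9 peaks within 16128 bp. CDC37 is a cochaperone of HSP90 for protein kinases, and PDE4A is a phosphodiesterase that breaks down cAMP. The chain held the tallest clustered peaks of the list, 1 within 44 bp of a PDE4A transcript start and 1 within 569 bp of another, both at fold 37.9 and −log10 p 97.9. Another tall peak in a PDE4A intron had a −log10 p of 43.8 and shared at least 1 run of 31 bases with the first peak of the chain, so its read placement is less certain, and the remaining 6 lay between 6.45 and 11.8. None of the 9 overlapped a GFI1 peak of K562 cells.

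ERCC1, a DNA repair endonuclease subunit, carried 8 peaks at chr19:45423533-45458078. They comprised 3 at promoters and 5 in introns, the tallest with a −log10 p of 47.5. TLE2 and TLE5, which belong to the Groucho family of corepressors and their modulators, shared a chain of 7 peaks at chr19:3035858-3063427. Its tallest peak lay in a TLE2 intron at fold 29.3 and −log10 p 76.5. The transcription factor gene NFIC held 11 LSD1 summits, 7 of them in a chain. At SEMA6B, which encodes a transmembrane semaphorin, 8 peaks ran from the introns into the neighbouring intergenic sequence. The tallest peaks of these chains reached 28.4 and 33.7.

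Outside chromosome 19 the largest chains lay mostly between genes. On chromosome 12, 8 intergenic peaks at chr12:113639534-113670247 had LHX5 as the gene with the nearest start, 177533 bp from the tallest summit (−log10 p 56.1). Near FGD2, a guanine nucleotide exchange factor gene, 7 peaks at chr6:37021863-37054911 comprised 1 in an intron and 6 intergenic, the tallest at 40.8. The longest chain, of 49759 bp and 6 peaks, lay at FIBCD1 on chromosome 9. The local background under its summits, 3.44 to 6.85 fragments, was high beside the median of 0.892 for all clustered peaks. On chromosome 22, clustered peaks had a median background of 2.80 fragments against 1.05 for the other LSD1 peaks of that chromosome. K562 cells are known for extra copies of the BCR-ABL1 fusion, which joins chromosomes 9 and 22, but copy number was not measured here and its part in these backgrounds was not tested.

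**Figure D1:**
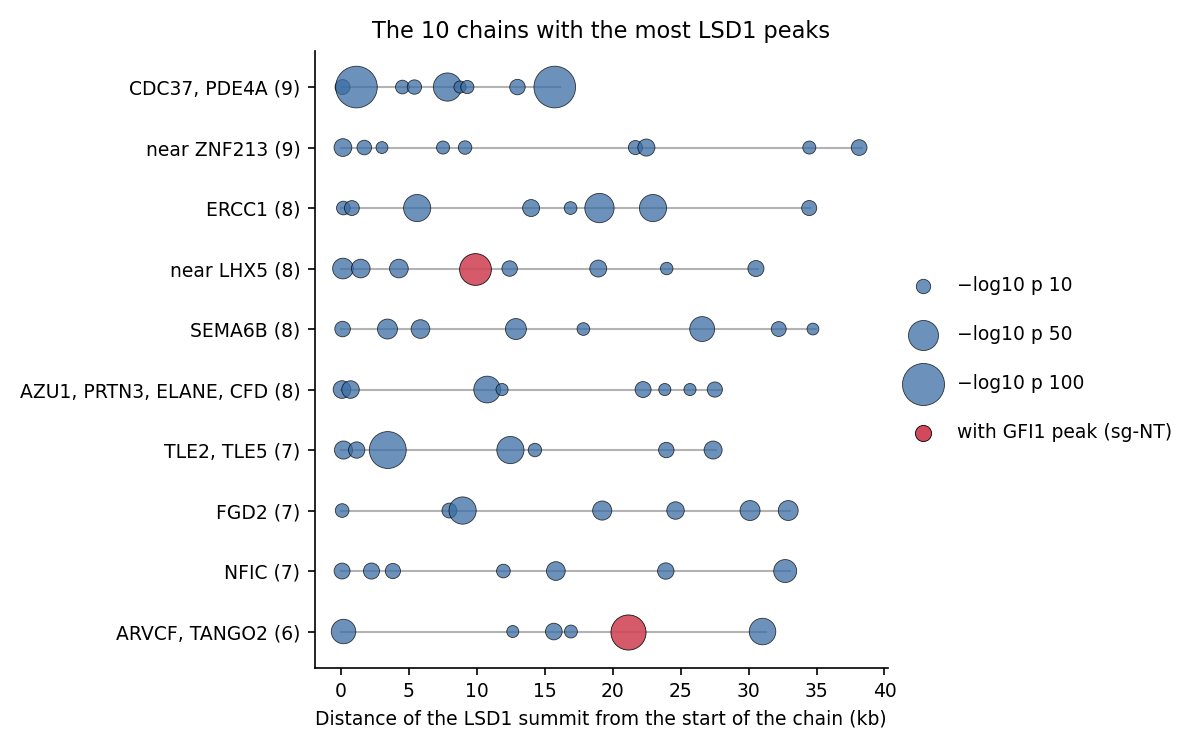
Each row is one of the 10 chains with the most LSD1 peaks (number in brackets, the tie at 6 peaks settled by summed −log10 p), each circle is an LSD1 summit at its distance in kb from the start of the chain, and circle area grows with −log10 p. Red circles overlap a GFI1 peak of sg-NT cells. A few tall peaks stand among small ones in most rows, up to 97.9 at PDE4A, and GFI1 marks 1 peak near LHX5 and 1 at TANGO2.

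The granule protein genes of chromosome 19 made up a chain of their own. AZU1, PRTN3, ELANE and CFD encode azurocidin, proteinase 3, neutrophil elastase and complement factor D, and lay in 1 chain of 8 LSD1 peaks at chr19:831519-859470. The tallest peak, chr19:841342-842568 in a PRTN3 intron, stood at fold 15.1 and −log10 p 39.2. It had at least 1 run of 31 bases in common with an intergenic peak of the chain at 6.45, so read placement is less certain at both. Next came a peak in an AZU1 exon and one just beyond the gene, at 16 and 15.8. An intronic ELANE peak had 12.7, the CFD promoter peak 11.3, and the other 3, among them the PRTN3 promoter peak, stood at 6.45 each, from 7 fragments. No called GFI1 peak of sg-NT or sg-LSD1 cells lay in this span. From signal tracks, the paper describes sites near PRTN3 bound by both GFI1 and LSD1 in sg-NT cells, with GFI1 lost after LSD1 depletion. Tracks, and sites outside the span, were not examined here. A GFI1 peak of THP1 cells overlapped the tallest LSD1 peak, at fold 10.3 and −log10 p 17.7.

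GSE1, which encodes a subunit of a CoREST-containing histone deacetylase complex, was the gene with the most clustered summits. Its body of 506680 bp on chromosome 16 held 32 LSD1 summits, and 18 of them, all intronic, lay in 4 separate chains. The tallest peaks of the 4 chains, in order along the chromosome, had −log10 p of 41.9, 22.1, 41.4 and 19.5. GFI1 of sg-NT cells lay at 1 of the 18 summits, the one at 41.4, and 1 LSD1 peak in the chain nearest the end of the gene shared its edge with a GFI1 peak of THP1 cells, the summits being 861 bp apart.

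Of the hematopoietic transcription factor genes, 2 of 36 (5.56%) lay in a chain, GFI1B and ZFPM1, against 0.544% of all protein-coding genes. This count was 1 when a transcript start had to lie in the span or chains needed at least 6 peaks. It was 0 with a gap of 5000 bp and 4 with 25000 bp. The GFI1B chain at chr9:132978556-133004582 held 6 peaks. A peak 14 bp from the GFI1B transcript start stood at fold 6.95 and −log10 p 14.6, and 2 peaks in introns had 9.19 and 8.61. The tallest, at fold 16.6 and −log10 p 33.7, lay 17713 bp from the start and was the 1 that carried a GFI1 peak. ZFPM1, a cofactor of GATA1, held 7 LSD1 summits, of which 4, all intronic, formed the chain. Their highest −log10 p was 18.5, and the windows of 2 of these 4 held the GATA core.

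Among 28 genes of heme synthesis and the red cell membrane, GYPB alone lay in a chain, with 4 peaks of −log10 p 8.75 to 20, the highest 43 bp from its transcript start. GYPB encodes glycophorin B and has near-identical paralogs, so its read placement is less certain. For 258 zinc-finger genes of chromosome 19, ZNF628 was the 1 gene within a chain (0.388%), beside 0.544% of all protein-coding genes. Chromosome 19 held 35 of the 100 chains, so the share over all chromosomes is not a matched background for this list. The share of all genes of chromosome 19 in chains was not counted. None of 10 globin genes, 31 genes of BCR-ABL and cytokine signalling, 73 clustered histone genes, 39 HOX genes and 83 cytosolic ribosomal protein genes lay in a chain. Counts of 1 of 25 for LSD1-CoREST and NuRD complex genes (GSE1) and 4 of 17 for neutrophil granule genes complete the lists. Over all 20020 protein-coding gene symbols, 109 (0.544%) shared at least 1 bp with a chain, and the granule genes count as 1 chain rather than 4 separate finds.

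Summits within 1000 bp of a protein-coding transcript start, here called promoter summits, were a smaller share of clustered than of other peaks outside chromosome 19. Over all chromosomes they numbered 100 of 477, or 21.0% (95% Wilson interval 17.6 to 24.8), against 25.5% (24.5 to 26.6) of the other peaks and 25.2% over all LSD1 peaks. These intervals overlap at their edges. With the starts of all transcripts of protein-coding genes, the shares were 23.3% (19.7 to 27.3) and 28.7% (27.6 to 29.8), which do not overlap. The Wilson intervals here and below cover counting error only, and peaks of 1 chain share a locus and are not independent. On chromosome 19 the shares were 29.6% and 32.3%, with overlapping intervals, and on all other chromosomes 15.8% (12.1 to 20.3) and 24.8% (23.7 to 26), which do not overlap. Intergenic summits were 41.7% of the clustered and 36.1% of the other peaks. With a distance of 5000 bp in place of 1000 bp, or chains of at least 6 peaks, the order turned around.

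Counted by chain, 53 of the 100 chains held a promoter summit and 29 held at least 2. The tallest peak lay between genes in 46 chains, in an intron in 30, at a promoter in 22 and in an exon in 2. Protein-coding gene bodies were absent from 25 chains, while 49 chains touched 1 gene, 17 touched 2 and 9 touched at least 3. Most chains were therefore not rows of promoters of neighbouring genes.

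GFI1 was found at few clustered peaks. In sg-NT cells, 18 of 477 overlapped a GFI1 peak by at least 1 bp, or 3.77% (2.40 to 5.89), against 372 of 6071 other LSD1 peaks, or 6.13% (5.55 to 6.76). The share over all LSD1 peaks was 5.96%. The intervals of the 2 groups overlap slightly. When peaks under −log10 p 8 were dropped from each list, the shares were 2.08% (0.955 to 4.45, 6 peaks) and 6.67% (6 to 7.40), and these intervals do not overlap. On chromosome 19 it was 2 of 179, or 1.12% (0.307 to 3.98), against 3.33% (2.14 to 5.15), and elsewhere 5.37% (3.33 to 8.54) against 6.42% (5.80 to 7.10). Both intervals overlap within each set of chromosomes.

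The height of the LSD1 peak went along with GFI1 in both groups. When all LSD1 peaks were cut into 4 classes of equal size by −log10 p, GFI1 was found at 1.10% of clustered peaks in the weakest class, 0 of 104 in the next (which allows up to 3.56%), 1.47% in the one above and 10.3% in the strongest. For other LSD1 peaks the shares in the same order were 0.841%, 1.50%, 4.66% and 17.8%. In the strongest class (−log10 p from 16.6) 15 of 146 clustered peaks had a GFI1 peak, with an interval of 6.33 to 16.3%, against 16 to 19.9% for the others. The clustered share was the lower one in 3 of the 4 classes, and the intervals overlapped in every class, in the strongest only at their edges.

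Counted per chain, the order was different. A GFI1 peak lay at a member of 17 of the 100 chains, or 17% (10.9 to 25.5), against 366 of 5137 single peaks and smaller chains, or 7.12% (6.45 to 7.86), and 7.31% over all loci. A chain of 4 has more peaks at which GFI1 can lie, so the 2 counts measure different things. Per chain, the share was 6.07% for single peaks, 11.5% for pairs, 19.3% for chains of 3, 16.9% for chains of 4 and 17.1% for larger ones. Per peak, it was 6.07%, 5.98%, 7.03%, 4.66% and 2.90%.

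**Figure D2:**
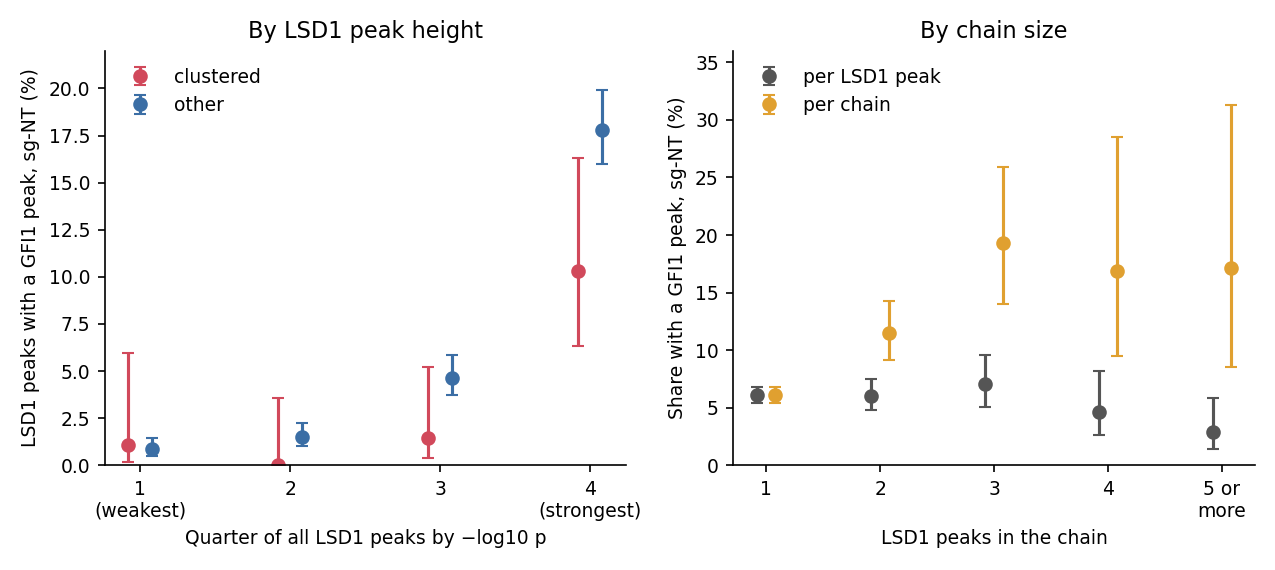
Share of LSD1 peaks that overlap a GFI1 peak of sg-NT cells, with 95% Wilson intervals as bars. On the left, clustered and other LSD1 peaks are split into 4 classes of LSD1 −log10 p, and the strongest class has 10.3% against 17.8%. On the right, the share is given by the number of LSD1 peaks in the chain, once per peak (falling to 2.90%) and once per chain (17.1% for chains of 5 or more).

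Within their chains, GFI1 peaks sat mostly at the tallest LSD1 peak. All 18 GFI1 peaks in the 100 spans overlapped a clustered LSD1 peak and none lay in the gaps between. Over the whole list of 498 GFI1 peaks, 372 lay at other LSD1 peaks and 108 at no LSD1 peak. Overlap with LSD1 was thus common outside the chains as well. In 14 of the 17 chains the tallest LSD1 peak was a GFI1 site. That is 14.0% of the 100 tallest members, while 4 of the 377 lesser members had a GFI1 peak (1.06%). Median LSD1 −log10 p was 41.3 at clustered peaks with GFI1 and 12.6 at the remaining ones. Summits of the paired peaks were 4 to 155 bp apart, with a median of 66.0 bp.

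The tallest GFI1 peak of the chains lay at chr11:45826451-45826855, 20386 bp from the start of CRY2, which encodes a circadian repressor. Its fold was 22.6 and its −log10 p 49.4, and the LSD1 peak there reached fold 34 and −log10 p 89.2. The 3 other LSD1 peaks of that chain stood at 12.6, 6.75 and 5.77. A CLEC16A intron was next, with a GFI1 −log10 p of 45.9 and an LSD1 −log10 p of 67.3, beside LSD1 neighbours of 18.5, 16.5 and 15.8. These windows, printed above, hold AATC in 2 copies each.

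The chain nearest to MYLIP, a ubiquitin ligase gene whose start lay more than 200 kb away, was the 1 chain with 2 GFI1 peaks, at −log10 p 43.3 and 14.9. Their LSD1 peaks were of similar height, 43.5 and 47.5, and the other LSD1 peaks of the chain had 16.2 and 6.43. At FBXL18, an F-box protein gene, GFI1 reached 24.4 at an LSD1 peak of 49.1, in a peak of 1885 bp, the widest of all clustered peaks. The site upstream of CASTOR2, an arginine sensor gene of the mTORC1 pathway, had a GFI1 −log10 p of 19, an LSD1 −log10 p of 22.7, and the 1 window among the 18 with the whole core AATCAC. Near LHX5, GFI1 reached 18.3 at the tallest of 8 LSD1 peaks.

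The other 11 GFI1 sites had −log10 p of 6.26 to 12.2. They included the promoter of GP1BB, a platelet glycoprotein gene, where GFI1 reached 12.2 at an LSD1 peak of 63.2, and an intron of TANGO2 with GFI1 at 8.90 and LSD1 at 68.9. Both lie on chromosome 22, where the background was high. The GFI1 site downstream of GFI1B had 11.6. In the 3 chains where the tallest LSD1 peak carried no GFI1, at HJV, SPN with QPRT, and ARID3A, the GFI1 peaks were the weakest of the 18, at 6.26, 6.57 and 6.29. Promoters made up 2 of the 18 sites, GP1BB and QPRT.

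**Figure D3:**
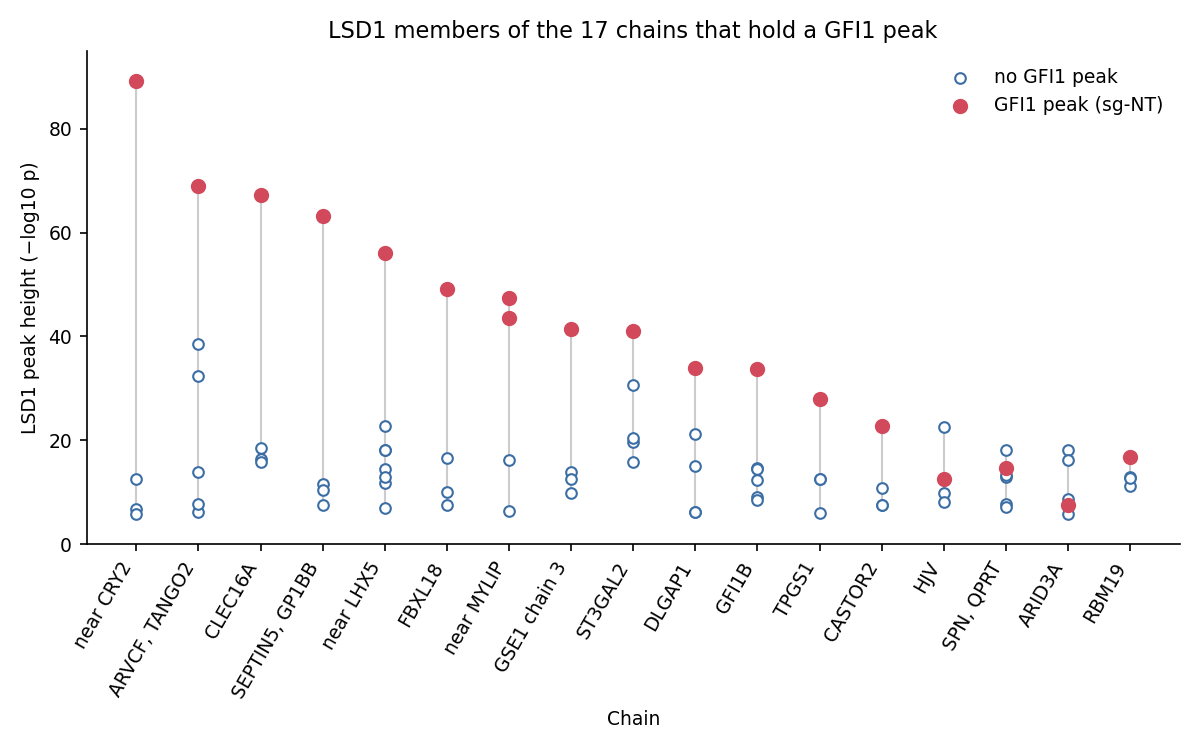
LSD1 peak height (−log10 p) of every member of the 17 chains that hold a GFI1 peak of sg-NT cells, chains ordered by their tallest member. Filled red points overlap a GFI1 peak and open points do not. In 14 chains the highest point is red, from 89.2 near CRY2 to 16.8 at RBM19, and at HJV, SPN with QPRT, and ARID3A an open point is highest.

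In sg-LSD1 cells, 1 clustered LSD1 position overlapped a GFI1 peak (0.210%, interval 0.0370 to 1.18), against 1.15% (0.914 to 1.45) of other positions and 1.08% over all. Of the 18 GFI1 peaks at clustered LSD1 peaks in sg-NT cells, 1 overlapped a GFI1 peak in sg-LSD1 cells, or 5.56% (0.988 to 25.8). For GFI1 peaks at other LSD1 peaks it was 45 of 372, or 12.1% (9.16 to 15.8), and 10.2% over all 498. The interval for the 18 is wide and spans the other share, so no difference was detectable at this number. The sg-LSD1 list was also shorter, with 160 peaks, and it stems from 1 library.

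The position that remained lay in an intron of DLGAP1, which encodes a postsynaptic scaffold protein, on chromosome 18. GFI1 stood at fold 7.32 and −log10 p 11.9 in sg-NT cells and at fold 5.24 and −log10 p 8.49 in sg-LSD1 cells, each from 13 fragments over the summit. LSD1 stood at fold 14.5 and −log10 p 34 there, the tallest of a chain of 5. THP1 cells had a GFI1 peak at the same place, with a −log10 p of 6.61. The 5 tallest GFI1 peaks of the chains, near CRY2, at CLEC16A, near MYLIP, at FBXL18 and at CASTOR2, had no overlapping GFI1 peak in sg-LSD1 cells.

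GFI1 of THP1 cells overlapped 17 clustered LSD1 peaks, or 3.56% (2.24 to 5.63), against 4.68% (4.17 to 5.24) of the others and 4.60% over all. SPI1 of THP1 cells, the myeloid factor also known as PU.1, overlapped 3, or 0.629% (0.214 to 1.83), against 0.791% and 0.779%. These intervals overlap. For GFI1 and SPI1 of THP1 cells together the order turned around when peaks under −log10 p 8 were dropped, with 5.19% of clustered (3.17 to 8.39) and 4.62% of other peaks (4.06 to 5.24). The spans held 29 GFI1 peaks of THP1 cells in 25 chains, of which 17 lay at an LSD1 peak of K562 cells and 12 between. For SPI1, 3 of 10 lay at an LSD1 peak and 7 between. These counts are small, and the share of all THP1 peaks that lie at an LSD1 peak was not counted. No difference between the factors is therefore drawn from them. At the overlaps, SPI1 summits lay 356 to 477 bp from the LSD1 summit, and GFI1 summits 0 to 861 bp with a median of 180 bp.

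Chains with GFI1 in both cell lines numbered 3, at DLGAP1, ST3GAL2 and HJV, and in the first the 2 cell lines shared the LSD1 position. The tallest THP1 GFI1 peak in a span lay in an intron of NOL4L with a −log10 p of 32.8, at an LSD1 peak of 9.19. The tallest SPI1 peak, with 38.8, overlapped the edge of the tallest LSD1 peak of the RAB11FIP1 chain, the summits being 371 bp apart. At TNFRSF1B, a TNF receptor gene of myeloid cells, 2 GFI1 peaks and 1 SPI1 peak of THP1 cells lay in the span, and none of them at an LSD1 peak of K562 cells.

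The core letters were counted in 50 bp at each LSD1 summit, on both strands. AGATAA, the core bound by GATA factors, was in 5.24% of clustered windows (3.57 to 7.62) and 7.96% of other windows (7.30 to 8.66), with 7.76% over all. In windows 2000 bp from the summits it was in 2.2% (1.44 to 3.34) and 2.45% (2.19 to 2.74), below the summits of both groups. Over 200 bp, AGATAA was in 16.8% of clustered (13.7 to 20.4) and 25.8% of other windows (24.7 to 26.9), which do not overlap. TGTGGTT, the RUNX core, also had intervals apart over 200 bp, at 3.98% (2.56 to 6.14) and 6.79% (6.18 to 7.45). Within chromosome 19, and within the remaining chromosomes, the 200 bp intervals of TGTGGTT overlap. In windows 2000 bp from clustered and other summits it was in 0.419% (0.163 to 1.07) and 0.807% (0.663 to 0.983). AATCAC was in 2.10% of clustered and 2.5% of other windows (2.47% over all), beside 1.68% and 2.34% away from the summits. In 50 bp, TGTGGTT was in 1.26% and 2.26% (2.18% over all), TGACTCA (AP-1) in 0.629% and 1.66% (1.59% over all) and GAGGAAGT (SPI1) in 0.210% and 0.329% (0.321% over all). In 50 bp all 5 shares were lower in clustered windows, with overlapping intervals in each case. The order turned around for AGATAA with a gap of 5000 bp, for GAGGAAGT with 25000 bp and for TGACTCA with chains of at least 3 peaks.

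At the 18 clustered LSD1 peaks with GFI1, the short core AATC was in 8 windows (44.4%, 24.6 to 66.3), against 116 of 459 windows without GFI1 (25.3%, 21.5 to 29.4) and 27.6% of all LSD1 windows. Other LSD1 peaks with GFI1 had it in 45.7% (40.7 to 50.8). The letters AATC occur often by their shortness, and 24.0% of windows 2000 bp from clustered summits held them. AGATAA was in 4 of the 18 windows, at FBXL18, near LHX5, at DLGAP1 and downstream of GFI1B.

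One of the 2 largest chains lay over a cluster of tRNA genes. The 9 peaks at chr16:3149767-3188082, with ZNF213 and the olfactory receptor gene OR1F1 as the genes with the nearest starts, had −log10 p of 6.11 to 16.2, and 6 of their summits were within 200 bp of a tRNA gene. The comparison with tRNA genes was added after this chain had been seen. Over all clustered peaks, 10 summits were that close to a tRNA gene (2.10%, 1.14 to 3.82), against 23 of 6071 others (0.379%, 0.253 to 0.568) and 0.504% over all, but they came from 3 chains. The other 2 chains lay near OR4D9 on chromosome 11 (3 of 6 summits) and near H4C8 on chromosome 6 (1 of 4).
The tRNA genes beside 4 of these summits are printed from GRCh38 at the RefSeq positions of the genes, on the strand that reads the B box, an internal promoter element of tRNA genes found by a pattern of 11 letters and shown in capitals. They are shown because they are near-identical copies.
TRP-TGG3-3, chr16:3158922-3158993, plus strand: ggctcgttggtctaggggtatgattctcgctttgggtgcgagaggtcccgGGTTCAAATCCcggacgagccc
TRP-CGG1-2, chr16:3172048-3172119, plus strand: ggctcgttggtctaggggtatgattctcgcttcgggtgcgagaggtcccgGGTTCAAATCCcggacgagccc
TRP-TGG3-4, chr16:3184133-3184204, minus strand: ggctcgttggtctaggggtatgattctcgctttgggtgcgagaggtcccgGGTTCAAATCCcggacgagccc
TRP-TGG3-5, chr16:3188094-3188165, plus strand: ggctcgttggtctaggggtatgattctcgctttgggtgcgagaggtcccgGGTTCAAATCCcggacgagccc

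The LSD1 peaks beside these proline tRNA genes had −log10 p of 8.53, 14.8, 7.77 and 12.3 in the order printed. The TGG copies were the same at 72 of 72 bases, and TRP-CGG1-2 matched them at 71. Of 443 tRNA genes on the main chromosomes, 74.9% held the B box pattern. Reads from identical copies cannot be told apart by sequence, and 3 members of this chain had at least 1 run of 31 bases in common. Shared runs of that length were found in 10 of the 100 chains, in 2 or 3 members each.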

How the data were processed

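ChIP-seq peak lists of 5 libraries were used, 1 per antibody and condition. Peaks were called by the authors library by library (MACS2 2.2.9.1, p threshold 1e-05), and blacklisted regions were dropped. Before that step, Trim Galore 0.6.1 trimmed the reads, bowtie2 2.5.4 aligned them (GRCh38) and Picard 3.1.0 took out duplicates. The control given to MACS2 is not named in the sources used here. The deposited fold is a ratio of pileup to local background, and the deposited −log10 p and −log10 q are p-values and q-values of the same summit; the deposited score was not used. Fragment numbers were solved from fold and −log10 p with a pseudocount of 1, since read totals were not at hand. Per list, summits rested on a median of 11.0 to 13.0 fragments.

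Clustered peaks, gene lists and named chains were chosen with earlier results of these data known. Chains named are the 10 with most peaks, the 5 with most or tallest GFI1 peaks, those with GFI1 in both K562 lines, the PRTN3 chain, the longest and those with list genes. Others named in the text were chosen after their values were seen. Genes come from GENCODE release 44, and tRNA genes and their positions from RefSeq (GRCh38.p14). Shares have 95% Wilson intervals, and no test was run. Overlaps were checked with bedtools 2.31.1, and chaining, overlaps and fragment numbers were tested on simulated data. Python 3.11.15, scipy 1.17.1, pysam 0.24.0 and matplotlib 3.10.9 were used. Input libraries and H3K4me1 libraries of murine cells were not analysed here, and the sequence at the PRTN3 summit is not reported here.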

Additional observations from a re-analysis of the deposited data

How the results depend on the processing

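The number of clustered peaks follows the rule. It was 83 with a gap of 5000 bp, 992 with 25000 bp, 975 with chains of at least 3 peaks, 131 with at least 6, 289 when peaks under −log10 p 8 were dropped from each list, and 298 without chromosome 19. The sg-NT GFI1 share was below that of other LSD1 peaks under the 11 alternatives that bear on it, 2 of which leave the list as it is, and left its interval in 1, the −log10 p limit of 8 (2.08% against 6.67%). The sg-LSD1 GFI1 share was 1.20% with a gap of 5000 bp, above the other peaks, and 0 with chains of at least 6 or the −log10 p limit of 8. The share of GFI1 peaks found again in sg-LSD1 cells was then 0 of 5 and 0 of 6. The THP1 share (GFI1 or SPI1) was 2.29% with chains of at least 6 and 2.10% with summits at most 200 bp apart, and it was above that of other peaks (5.19% against 4.62%) with the −log10 p limit of 8. The promoter share was 26% with chains of at least 6, 42.3% within 5000 bp and 15.8% without chromosome 19. AATCAC was in 7.55% of 200 bp windows. Of the list genes, 9 in chains became 3, 21, 16 and 4 with gaps of 5000 and 25000 bp, chains of at least 3 and no chromosome 19. Median fragments at clustered summits went from 14.0 to 22 with a pseudocount of 0, under which 0.229% of peaks could be solved. The 62 other main values stayed within their interval or within 1.5 times. Leaving out chromosome 19, or chromosomes 9 and 22, and counting starts of all transcripts were added after the data had been seen. No replicate could be left out, since each condition had 1 library. No paired analysis was possible because no condition has a second library. Few fragments per summit mean that weak sites fall under the threshold.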

Other observations

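A chain of 4 LSD1 peaks on chromosome 8 had MYC as the gene with the nearest start, 151690 bp from the tallest, with −log10 p of 9.78 to 17.9 and no GFI1 peak. At CSF3R, the granulocyte colony-stimulating factor receptor gene on chromosome 1, 5 LSD1 peaks had −log10 p of 10.8 to 43.0 and no GFI1 peak in either cell line. Both chains were chosen after their values were seen.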
